A study of Homo sapiens with 5 samples.

Results

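The 39 HOX genes are the protein-coding genes of GENCODE release 44 whose symbol is HOXA, HOXB, HOXC or HOXD followed by a number. They made up 39 of the 20033 protein-coding genes of the nuclear chromosomes. Chromatin at these genes was read from a single list of 181723 ATAC-seq hotspots of MCF10A, an immortalized, non-tumorigenic line of human mammary epithelial cells. The cells were grown at baseline, with no agent added as a test, in medium with horse serum, EGF, hydrocortisone, cholera toxin and insulin. ATAC-seq uses the transposase Tn5 to insert adapters into accessible DNA, and a hotspot is a stretch where the reads were locally enriched. The authors merged 5 replicates before the call. No value therefore has a replicate error, the depth behind it is unknown, and the counts and scores below are a description of this one pooled list without a test. The list holds 1 score per hotspot, which ran between 4.36 and 912 with a median of 5.81 and which orders hotspots by strength on a scale that the sources used here do not define. Of all hotspots, 10% had a score above 16.1.

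HOX proteins are homeodomain transcription factors that tell cells where they lie along the body axis. Their genes sit in tight clusters in which the order along the chromosome follows the order of expression from head to tail, and a gene with the same number in another cluster is its paralogue. The clusters are textbook targets of Polycomb repression and Trithorax activation. Adult epithelia, the mammary gland among them, keep a tissue-specific subset of HOX genes switched on. Accessible DNA at a start site is a feature of active and poised promoters alike, and RNA was not measured in the data used here. A low score can stand for a site open in few cells or weakly open in many, which cannot be told apart in a pooled list.

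A promoter hotspot is a hotspot with any base within 1000 bp of a transcription start site (TSS) of the gene, over all its annotated transcripts. Of the 39 HOX genes, 24 (61.5%) had a promoter hotspot, against 77.2% of all protein-coding genes. At the canonical TSS alone the count was 20 of 39 HOX genes (51.3%), against 70.3% of all protein-coding genes. The canonical TSS base itself lay inside a hotspot in 12 HOX genes (30.8%), against 60.6% of all protein-coding genes. A promoter hotspot in the top 10% of scores was present at 5 HOX genes (12.8%), against 47.4% of all protein-coding genes. HOX genes also had fewer annotated start sites, with a median of 2 TSSs per gene against 5 over all protein-coding genes, and the part of this in the any-TSS count was not tested. The canonical-TSS counts do not depend on it.

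HOX promoters are rich in CpG dinucleotides, and promoters of that kind were usually open in this list. A CpG-rich promoter was taken as one whose 1000 bp around the canonical TSS had a CpG content above 0.6 of that expected from its bases and a GC content above 55%. By this rule 30 of the 39 HOX promoters (76.9%) were CpG-rich, against 59.9% of all protein-coding genes. Of these 30 HOX genes, 19 (63.3%) had a promoter hotspot, against 91.5% of all genes with a CpG-rich promoter. At the canonical TSS the count was 17 of the 30 HOX genes (56.7%), against 88.1% of all genes with a CpG-rich promoter. Of the 9 HOX genes with other promoters, 5 (55.6%) had a promoter hotspot. Over all protein-coding genes, 15461 of 20033 had one, and 10985 of these were among the 12004 genes with a CpG-rich promoter. Set beside the remaining genes, the HOX genes with other promoters showed no clear gap in this count. At the canonical TSS 3 of these 9 HOX genes (33.3%) had a hotspot. Over all protein-coding genes 14093 had one there, 10578 of them with a CpG-rich promoter. A group of 9 genes is too small to tell a modest gap from none. The gap to other genes was thus wider among CpG-rich promoters than over all promoters.

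The 4 clusters differed in how many of their promoters were open. In HOXA, on chromosome 7, 10 of 11 genes had a promoter hotspot, and in HOXC, on chromosome 12, 7 of 9 did. In HOXB, on chromosome 17, 4 of 10 had one, and in HOXD, on chromosome 2, 3 of 9 did. Over all protein-coding genes the share was 77.2%, near that of HOXC (77.8%). The HOXA share (90.9%) was near the 91.5% of all genes with a CpG-rich promoter. This held with any TSS counted. At the canonical TSS alone HOXA had 8 of 11, against 88.1% of all genes with a CpG-rich promoter. Such promoters were found at 10 of 11 genes in HOXA, 4 of 10 in HOXB, 7 of 9 in HOXC and 9 of 9 in HOXD. The part of CpG content in the differences between clusters was not tested. The counts of all 4 clusters changed with the rule. HOXB had 7 with a window of 2000 bp (HOXC then had 8). It had 2 with the canonical TSS alone or with the TSSs of protein-coding transcripts. With the hotspots above the median score alone, HOXD had 1 and HOXC had 5. The lowest count of HOXA was the 8 at the canonical TSS. All 5 promoter hotspots in the top 10% belonged to HOXA (3 genes) and HOXC (2 genes). Among the genes that had a promoter hotspot, the highest score per gene had a median of 9.06 in HOXA, 7.18 in HOXB, 6.24 in HOXC and 5.66 in HOXD. By paralogue group, 4 of 8 anterior genes (groups 1 to 3) had a promoter hotspot, 11 of 15 central genes (groups 4 to 8) and 9 of 16 posterior genes (groups 9 to 13). With any TSS counted, the central share (73.3%) was near the 77.2% of all protein-coding genes, and the anterior and posterior shares were lower. At the canonical TSS alone the counts were 2 of 8 anterior, 9 of 15 central and 9 of 16 posterior genes. All 3 shares were then below the 70.3% of all protein-coding genes, and the central and posterior shares were close. In HOXA all 4 central and 3 of 4 posterior genes had one. In HOXC all 4 central and 3 of 5 posterior genes did. In HOXB the counts were 1 of 3 anterior, 2 of 5 central and 1 of 2 posterior genes, and in HOXD 0 of 2, 1 of 2 and 2 of 5 in the same order.

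**Figure D1:**
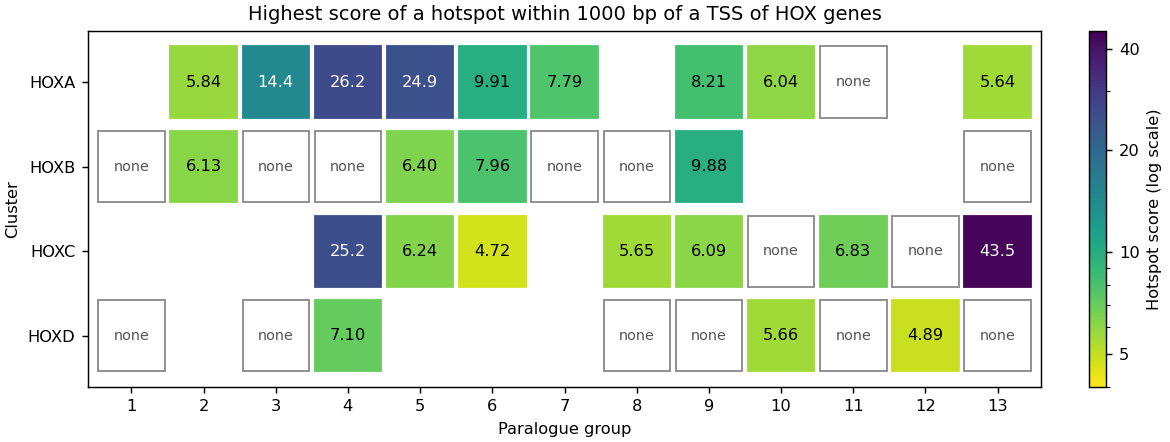
Highest score of a hotspot within 1000 bp of any TSS of a HOX gene, by cluster (rows) and paralogue group (columns). The colour follows the score on a log scale, "none" marks a gene without a promoter hotspot, and a place without a box shows no value. All scores above 20 stand in the HOXA and HOXC rows, and 12 of the 15 genes without a promoter hotspot stand in the HOXB and HOXD rows.

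Over the 24 HOX genes with a promoter hotspot, the highest score ran between 4.72 at HOXC6 and 43.5 at HOXC13, with a median of 6.96. The same median over all protein-coding genes with a promoter hotspot was 20.4. The values fell into a large low set and a small high one. A score below 10 was the highest of 18 genes, 1 gene (HOXA3) lay between 10 and 20, and 5 genes lay above 20. Each of the 24 genes had its own strongest hotspot, so no hotspot was counted for 2 HOX genes. The strongest promoter hotspots of the HOX genes had a median width of 688 bp, against 910 bp for all protein-coding genes.

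HOXC13 had the strongest hotspot of all 4 clusters. HOXC13 is the most posterior gene of its cluster and is known in skin, where it acts in hair follicles and nails and regulates hair keratin genes. Its hotspot at chr12:53938340-53940068 had a score of 43.5, higher than 99.0% of all hotspots and higher than the best promoter hotspot of 93.9% of the protein-coding genes that had one. It was 1729 bp wide, covered the TSS and had its midpoint in an exon. The antisense gene HOXC13-AS started within the same hotspot. Its paralogues did not share this value, since HOXA13 had a score of 5.64 and HOXB13 and HOXD13 had no promoter hotspot.

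With any TSS counted, group 4 held the next strongest hotspots. At HOXA4 the hotspot at chr7:27130112-27131166 had a score of 26.2, was 1055 bp wide and covered the canonical TSS. At HOXC4 a hotspot at chr12:54017576-54018609 had a score of 25.2 and a width of 1034 bp. It lay 645 bp from an upstream alternative TSS of HOXC4, in an intron, and 466 bp from the start of a long non-coding RNA gene. Its midpoint was 37.9 kb from the group 1 end of the cluster, and the canonical HOXC4 TSS 2.2 kb. Of the canonical HOX TSSs, that of HOXC8 was nearest to it. The canonical HOXC4 TSS had a score of 4.57. HOXD4 had a score of 7.10 at a hotspot 196 bp downstream of its TSS, and HOXB4, a factor known from blood stem cells, had no promoter hotspot. The canonical TSS of HOXB4 was 7009 bp from the nearest hotspot. The HOXA4 score was higher than 95.6% of all hotspots, so a single paralogue group held both a strong hotspot and a gene with none.

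The promoters of HOXA4 and HOXD4, paralogues with a strong and a weak promoter hotspot, are printed. They are the RefSeq windows of 250 bases before to 50 after the start (build GRCh38.p14). The HOXA4 window, chr7:27130708-27131007 on the minus strand, lay wholly inside its hotspot. No base of the HOXD4 window, chr2:176151300-176151599 on the plus strand, lay in a hotspot. Capitals mark the E-box CACGTG, a site of MYC and other helix-loop-helix factors, and the GC box GGGCGG, the site of SP and KLF factors, on either strand.
HOXA4: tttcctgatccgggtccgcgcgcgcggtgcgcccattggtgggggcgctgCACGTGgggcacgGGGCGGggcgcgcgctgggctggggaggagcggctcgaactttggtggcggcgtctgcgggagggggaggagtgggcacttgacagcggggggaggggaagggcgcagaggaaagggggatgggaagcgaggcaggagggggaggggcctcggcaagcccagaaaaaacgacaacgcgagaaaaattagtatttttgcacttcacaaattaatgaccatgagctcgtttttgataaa
HOXD4: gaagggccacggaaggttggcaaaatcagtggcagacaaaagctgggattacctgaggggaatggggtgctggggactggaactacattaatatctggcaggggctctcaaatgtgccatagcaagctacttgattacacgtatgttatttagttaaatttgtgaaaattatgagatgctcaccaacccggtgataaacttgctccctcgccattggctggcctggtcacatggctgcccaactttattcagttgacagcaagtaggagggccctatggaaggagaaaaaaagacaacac
The HOXA4 window held 1 E-box and 1 GC box, and the HOXD4 window held neither. The HOXD4 hotspot, 196 bp downstream of the TSS, held both an E-box and a GC box. The lack of both thus holds for the printed window alone.

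HOXA5 also belonged to the high set. HOXA5, known for its part in lung development and studied as a tumour suppressor in breast, had a score of 24.9 at chr7:27143333-27144063, a hotspot 731 bp wide that covered its TSS. Its paralogues had low scores, 6.40 at HOXB5 and 6.24 at HOXC5. HOXC13, HOXA4 and HOXA5 kept these scores with windows of 500 and 2000 bp and with the canonical TSS alone. HOXC4 did not, since its highest score was 4.57 with 500 bp or with the canonical TSS.

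Among the other anterior genes, HOXA3 had a score of 14.4 at chr7:27113157-27114344, over an alternative TSS that shares the hotspot with starts of HOXA-AS2. HOXA3 patterns the pharyngeal arches. Its canonical TSS, which lies far upstream beyond HOXA4 to HOXA6, had no hotspot within 1000 bp. HOXA2, the gene of second-arch identity, had a score of 5.84 at a hotspot 418 bp wide that covered its TSS. HOXB2 had a score of 6.13 at an alternative TSS, in a hotspot that also lay at a start of HOXB-AS1, and none at its canonical TSS. HOXB3, HOXD1, HOXD3 and HOXB1 had none, although HOXB3 had 12 annotated TSSs.

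The HOXA2 promoter, chr7:27102634-27102933 on the minus strand, is printed because it held the HOX-PBX site TGATTNAT, at which a HOX protein binds together with its partner PBX. Of its 300 bases, 276 lay in the hotspot. Capitals mark the match, which stands on the opposite strand and is therefore read here as its reverse complement.
HOXA2: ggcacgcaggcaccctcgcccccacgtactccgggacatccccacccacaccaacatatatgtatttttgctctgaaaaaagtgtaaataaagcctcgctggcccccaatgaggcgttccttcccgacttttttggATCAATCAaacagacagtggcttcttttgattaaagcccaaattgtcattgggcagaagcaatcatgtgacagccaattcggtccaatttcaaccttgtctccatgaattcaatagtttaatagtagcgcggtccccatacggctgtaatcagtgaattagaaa
Of 26 distinct HOX promoter windows in the RefSeq table, covering 20 of the 39 HOX genes, 2 held this motif (7.69%), at HOXA2 and HOXD11, against 2.82% of all 34943 promoter windows. HOXD11 had no promoter hotspot.

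Among the central genes, HOXA6 had a score of 9.91 and HOXB6 a score of 7.96, both at alternative TSSs, and HOXC6 had the lowest score of all members, 4.72. HOXA7 had a score of 7.79 and HOXB7 had none. HOXC8 had a score of 5.65, while HOXB8 and HOXD8 had none. In all, 4 genes (HOXA3, HOXA6, HOXB2 and HOXB6) had their promoter hotspot at alternative TSSs and none at the canonical TSS. In 8 further genes a hotspot lay within 1000 bp of the canonical TSS without covering it: HOXA10, HOXB5, HOXB9, HOXC4, HOXC5, HOXC11, HOXD4 and HOXD10.

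Among the posterior genes other than HOXC13, scores were low. HOXB9 had the highest of these and the highest score anywhere in the HOXB cluster, 9.88 at chr17:48625469-48626137. HOXA9, a gene best known from leukaemia, had a score of 8.21 and HOXC9 a score of 6.09, and HOXD9 had none. HOXA10, a gene of the uterus and of blood, had a score of 6.04, HOXD10 a score of 5.66 and HOXC10 none. HOXC11 had a score of 6.83, while HOXA11 and HOXD11, known for the forearm skeleton, had none. HOXD12 had a score of 4.89 over its TSS and HOXC12 had none. HOXA13, HOXB13 and HOXD13 act in the hindgut, prostate and digits, and of these 3 only HOXA13 had a promoter hotspot, which it shared with a start of the long non-coding RNA HOTTIP.

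The limit of 1000 bp fell among several genes. The farthest inside it were the strongest hotspot of HOXC4 at 645 bp, that of HOXD10 at 611 bp and that of HOXB6 at 433 bp. HOXC4 also had a hotspot 290 bp from its canonical TSS, so its count as open did not hang on the limit. The nearest outside it were HOXB8 with its nearest hotspot at 1034 bp, HOXD3 at 1121 bp, HOXB7 at 1131 bp, HOXB1 at 1555 bp and HOXC12 at 1702 bp. The hotspots nearest to HOXB8, HOXB7, HOXB1 and HOXC12 had scores of 4.87, 4.40, 5.39 and 5.18. With 2000 bp, 29 of 39 HOX genes had a hotspot, against 81.1% of all protein-coding genes. The farthest were HOXC10 and HOXD8, whose closest TSSs were 10968 bp and 10181 bp from a hotspot.

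The clusters, between the outermost bases of their first and last HOX gene, held 82 hotspots by midpoint. The HOXA cluster (chr7:27092993-27200091) held 27, HOXB (chr17:48528526-48728750) held 24, HOXC (chr12:53938831-54056030) held 19 and HOXD (chr2:176092721-176190907) held 12. Their median score was 5.58, against 5.81 over all hotspots. Of the 82, 6 (7.32%) were in the top 10% of scores. The strongest promoter hotspots of HOXC13, HOXA4, HOXC4 and HOXA5 were among these 6. Of the 82, 38 lay within 1000 bp of a HOX TSS, and the hotspot over the HOXA13 TSS made a 39th whose midpoint fell outside the cluster. The promoter hotspots had a median score of 6.07, against 5.28 for the 20 in introns away from promoters, 5.18 for the 5 in exons and 5.32 for the 19 between genes.

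**Figure D2:**
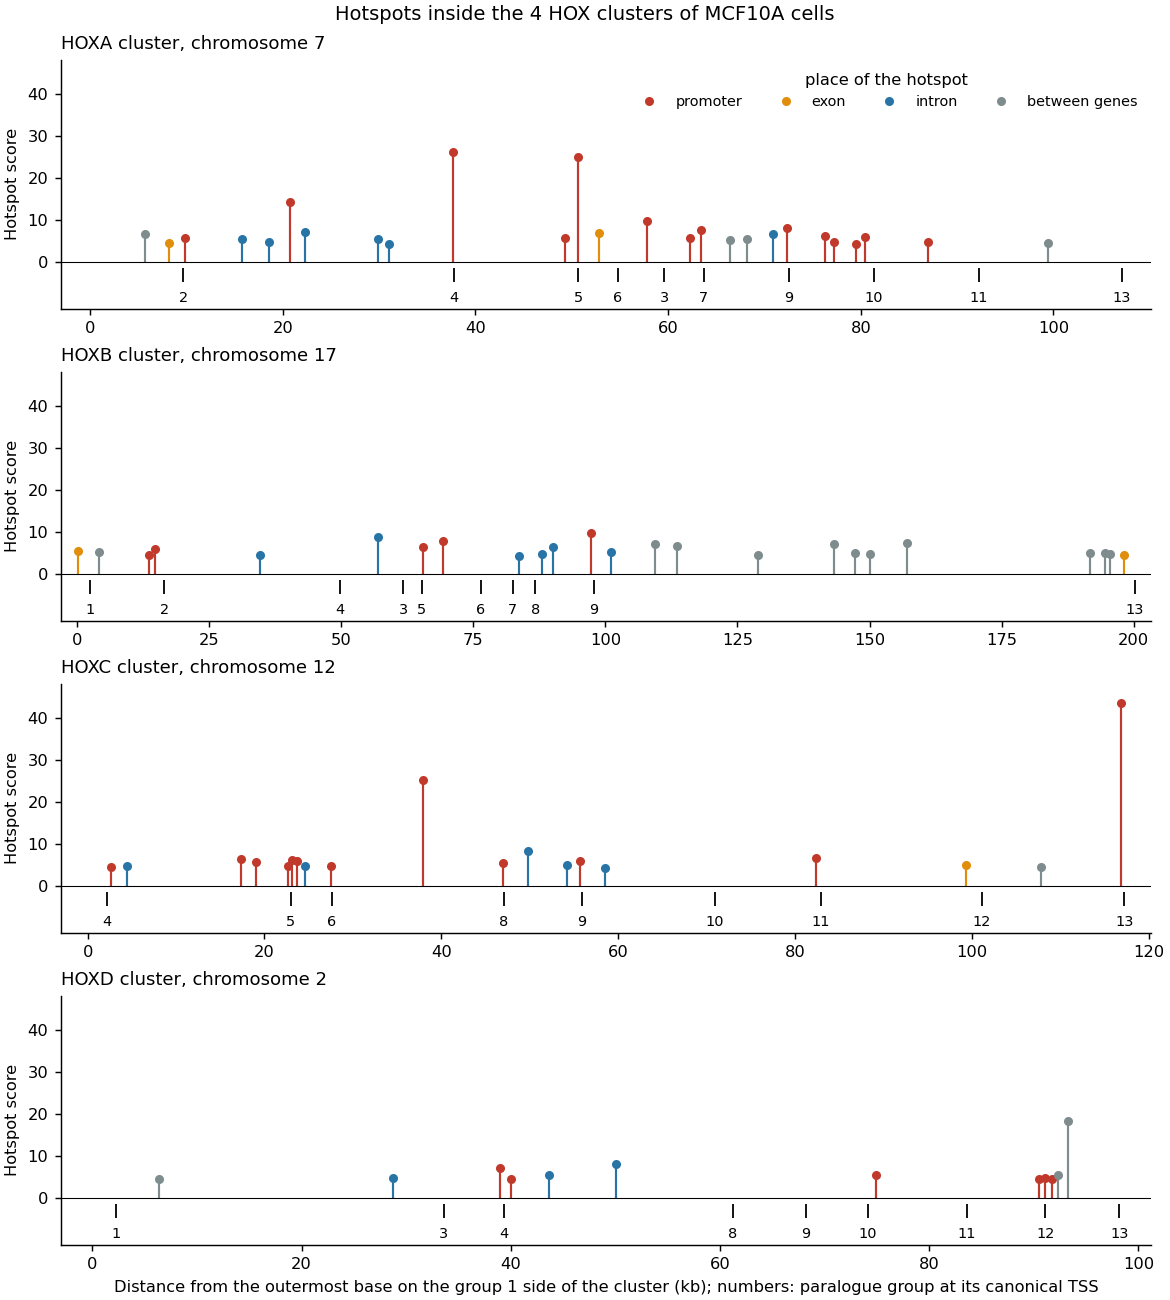
Score of hotspots inside the 4 clusters by their distance in kb from the outermost base on the group 1 side, coloured by place. Ticks under the axis give canonical TSSs with their paralogue group numbers. In HOXA hotspots above 10 stand at 20.8, 37.7 and 50.7 kb, whereas none of the 24 in HOXB reaches 10.

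Hotspots were denser in the clusters than around them. The 4 clusters together held 15.7 hotspots per 100 kb, against 7.73 in their 8 flanks of 500 kb and 6.19 over the genome without assembly gaps. They covered 6.67% of the cluster bases, against 2.76% of the flanks and 2.31% of the genome. HOXA had the highest density, 25.2 per 100 kb against 3.8 in the flank on its group 1 side, 7.20 in the flank on its group 13 side and 5.76 over chromosome 7. HOXC had 16.2 per 100 kb, against 11.2 and 10.0 in its flanks on the group 1 and group 13 sides and 5.78 over chromosome 12. HOXD had 12.2 per 100 kb, against 5.0 and 8.0 in the flanks in the same order and 6.03 over chromosome 2. HOXB had 12.0 per 100 kb, against 5.60 and 11.0 in its flanks in the same order and 8.52 over chromosome 17, so its margin over the group 13 flank was small. The share of hotspots in the top 10% of scores was 7.32% over the 4 clusters pooled, against 10.4% in the flanks and 9.97% over the genome, and it differed by cluster. In HOXA it was 11.1%, against 5.26% and 2.78% in the flanks on the group 1 and group 13 sides, and in HOXD 8.33%, against 4.0% and 5.0% in the same order. In HOXC it was 10.5%, against 10.7% and 18.0%, and in HOXB none of the 24 hotspots was in the top 10%, against 17.9% and 12.7%. These shares rest on 3 hotspots in HOXA, 2 in HOXC and 1 in HOXD.

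**Figure D3:**
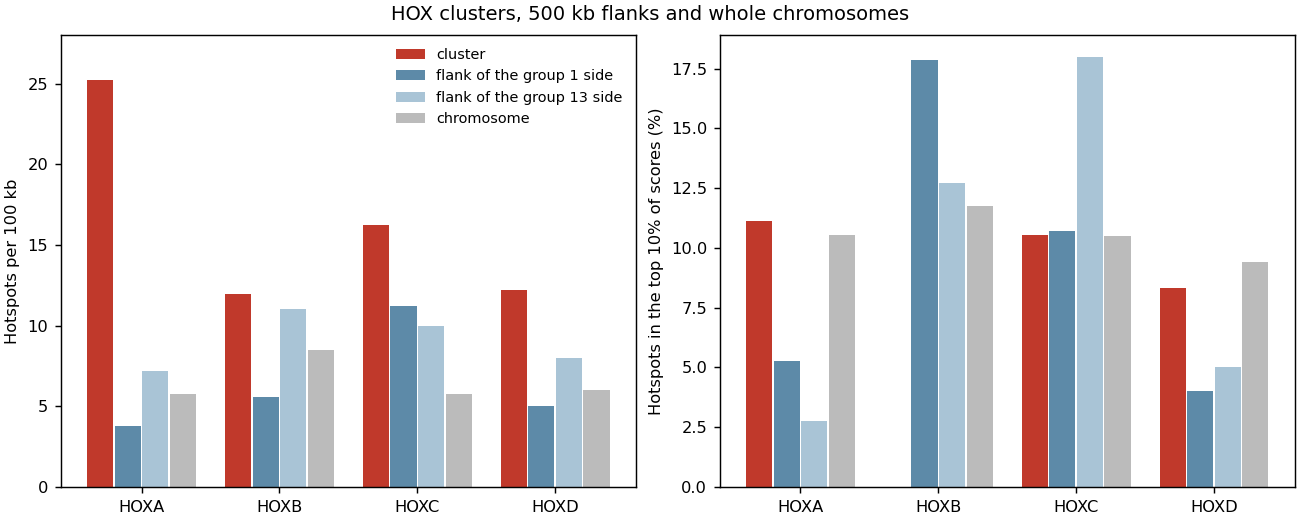
Hotspots per 100 kb (left) and share of hotspots in the top 10% of scores (right) for each HOX cluster, its 500 kb flanks and its whole chromosome. The HOXA bar reaches 25.2 hotspots per 100 kb, more than 3 times both of its flanks, and the HOXB cluster holds no hotspot in the top 10%.

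The distance between neighbouring hotspots varied within each cluster, and whether it differed from random placement was not tested. In HOXA all hotspots above 10 lay within 50.7 kb of the group 1 end, and the longest stretch without a hotspot, 12.1 kb, was around HOXA11. In HOXB a stretch of 34.3 kb without a hotspot lay between HOXB9 and HOXB13 and held no HOX TSS, and another of 22.0 kb held the TSS of HOXB4. In HOXC the longest empty stretch, 23.3 kb, held the canonical TSS of HOXC10. In HOXD a stretch of 24.4 kb held the canonical TSSs of HOXD8, HOXD9 and HOXD10. HOXB1 to HOXB9 had 12.3 hotspots per 100 kb, and the part beyond HOXB9, with the large gap, had 11.7.

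The one hotspot of the top 10% that was not within 1000 bp of a HOX TSS lay between HOXD13 and HOXD12, at chr2:176097344-176097974. Its score was 18.4, higher than 91.8% of all hotspots, and it was 631 bp wide. The next highest score in HOXD was 8.05. A stretch of 200 bases (chr2:176097405-176097604, plus strand, hg38) is printed because it held the only match to the AP-1 search pattern in the HOXD hotspots. AP-1 factors, the FOS and JUN proteins, act downstream of EGF. The search pattern TGANTCA, which takes any base at N, is in capitals. The match here reads TGATTCA, with T at N. The HOXB and HOXC matches over whole hotspots read TGAGTCA and TGACTCA, which are the same site on opposite strands. The HOXD match thus differs from both at the central base. Binding of AP-1 was not tested.
HOXD13-HOXD12: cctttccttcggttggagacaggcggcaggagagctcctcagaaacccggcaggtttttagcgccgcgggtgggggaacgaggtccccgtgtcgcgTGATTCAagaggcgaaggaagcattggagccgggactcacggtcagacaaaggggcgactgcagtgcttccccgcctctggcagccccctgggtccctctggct
Over the whole hotspot length, 3 of the 82 hotspots in the clusters (3.66%, 95% Wilson interval 1.25 to 10.2%) held an AP-1 match, against 16.4% of all hotspots. In windows of 300 bp around the midpoints the share was 4.88% (1.91 to 11.9%) in the clusters and 14.7% over all hotspots. All intervals cover counting error only.

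The sequence under the cluster hotspots was rich in GC. The 300 bp windows had a median GC content of 60.7%, against 52.3% over all hotspots, and a median of 15.5 CpG dinucleotides, against 5. A GC box was present in 36 of the 82 windows (43.9%, 33.7 to 54.7%), against 17.4% over all hotspots. Of the 82 hotspots, 38 lay within 1000 bp of a HOX TSS. In the RefSeq promoter windows, 13 of 26 HOX windows held a GC box, near the 44.9% of all promoter windows. The AP-1 pattern was in 0 of the 26 HOX windows and in 7.72% of all promoter windows. The part of base composition in the density of hotspots or in the AP-1 share was not tested. The part of promoter location in the GC box and AP-1 shares was not tested either. The homeodomain site TAATTA was found in 3.66% of the cluster windows (1.25 to 10.2%) and 2.89% of all windows. For TGATTNAT the shares were 2.44% (0.671 to 8.46%) and 4.65%, and for the YY1 site AAGATGGC 1.22% (0.216 to 6.59%) and 1.46%. The retinoic acid receptor sites, 2 copies of AGGTCA with 5 or 2 bases between them, were in none of the 82 windows, which allows a share of up to 3.66% (3 counts of 82; the Wilson upper limit is 4.47%), and in 0.0121% and 0.0292% of all windows.

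The YY1 match lay in the strong hotspot near the alternative TSS of HOXC4, far from its canonical TSS. A stretch of 200 bases of it (chr12:54018094-54018293, plus strand, hg38) is printed with the match in capitals, on the minus strand and so read as the reverse complement. YY1 is a zinc finger factor of many promoters.
HOXC4 hotspot: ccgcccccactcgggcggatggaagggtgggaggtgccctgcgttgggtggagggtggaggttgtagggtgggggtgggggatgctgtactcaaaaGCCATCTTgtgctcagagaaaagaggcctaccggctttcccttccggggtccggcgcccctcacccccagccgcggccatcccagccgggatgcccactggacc

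E-boxes were found in several of the strongest cluster hotspots, a count that depended on the length searched. Over the whole hotspot length, CACGTG was found in 4 of the 6 cluster hotspots of the top 10% (66.7%, 30.0 to 90.3%), against 16.5% of all hotspots of the top 10%. The hotspots of HOXC13, HOXA4 and HOXA5 were among these 4, and that of HOXC13 held 2 E-boxes. The motif reads the same on both strands. Over all 82 hotspots the share was 11.0% (5.88 to 19.6%), against 6.28% of all hotspots. A long hotspot has more room for a match, and the hotspots of HOXC13, HOXA4 and HOXA5 were 1729, 1055 and 731 bp wide, against a median of 287 bp over all hotspots. In the 300 bp windows, 1 of the 6 held an E-box (16.7%, 3.01 to 56.4%), against 5.66% of all hotspots of the top 10%, and over all 82 the direction turned, with 3.66% (1.25 to 10.2%) in the clusters against 4.74%. In the RefSeq promoter windows, 9 of 26 HOX windows (34.6%) held an E-box, against 7.23% of all promoter windows. Most of these HOX windows came from HOXA and HOXD, and some genes, such as HOXA3 and HOXA10, had several. CACGTG holds a CpG, and the part of CpG content in this share was not tested. Of these 9 HOX windows, 3 overlapped a hotspot (HOXA4, HOXA7 and HOXA9), and of the 17 HOX windows without an E-box, 7 did. An E-box was therefore present at open HOX promoters and at ones without a hotspot, among them HOXD1, HOXD3, HOXD11 and HOXD13.

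The promoters of HOXA7 (chr7:27156626-27156925, minus strand) and HOXA9 (chr7:27165488-27165787, minus strand) are printed to compare the place of the E-box with that at HOXA4. Capitals again mark CACGTG and GGGCGG on either strand.
HOXA7: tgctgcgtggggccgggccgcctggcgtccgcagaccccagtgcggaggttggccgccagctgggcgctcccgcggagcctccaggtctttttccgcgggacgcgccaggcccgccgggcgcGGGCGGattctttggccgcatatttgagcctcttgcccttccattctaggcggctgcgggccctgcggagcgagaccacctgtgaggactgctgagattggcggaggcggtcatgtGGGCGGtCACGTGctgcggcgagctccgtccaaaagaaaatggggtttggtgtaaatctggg
HOXA9: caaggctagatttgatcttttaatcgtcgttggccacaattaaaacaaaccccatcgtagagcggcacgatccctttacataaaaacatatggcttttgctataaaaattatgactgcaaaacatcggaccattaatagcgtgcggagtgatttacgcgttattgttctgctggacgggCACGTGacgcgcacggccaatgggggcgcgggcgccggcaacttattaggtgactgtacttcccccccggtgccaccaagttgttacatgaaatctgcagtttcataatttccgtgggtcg
Each window held 1 E-box, and the HOXA7 window held 2 GC boxes and the HOXA9 window none. Of the 300 bases, 119 lay in the hotspot at HOXA7 and 251 at HOXA9.

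CTCF, the factor that anchors chromatin loops, is known for sites between active and silent parts of HOX clusters. Its consensus was found in 1 of the 82 cluster windows (1.22%, 0.216 to 6.59%), against 1.23% over all hotspots. The match was at chr7:27161138-27161149, between HOXA7 and HOXA9, in a hotspot with a score of 5.55. The whole hotspot (chr7:27161093-27161344, plus strand, hg38) is printed with the match in capitals, which stands on the minus strand.
HOXA7-HOXA9: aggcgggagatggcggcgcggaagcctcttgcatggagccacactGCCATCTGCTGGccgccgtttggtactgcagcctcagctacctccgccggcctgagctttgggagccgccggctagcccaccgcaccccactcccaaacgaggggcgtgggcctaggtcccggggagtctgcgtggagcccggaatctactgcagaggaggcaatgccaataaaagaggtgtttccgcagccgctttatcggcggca
In windows of 120 bp no cluster hotspot held the consensus, since this match lies toward the edge of its hotspot. A single strict consensus leaves out weaker sites, and no match elsewhere says nothing about CTCF there.

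Non-coding genes in the clusters often shared a hotspot with a HOX promoter. Of 28 long non-coding RNA genes that overlap the clusters, 15 (53.6%) had a promoter hotspot, against 40.1% of the 18866 such genes in the genome. In 10 of the 15 the strongest of these hotspots was also within 1000 bp of a HOX TSS, so the 2 starts cannot be told apart. HOTAIR, an RNA of the HOXC cluster studied in breast cancer, shared the hotspot of HOXC11 with a score of 6.83. HOXA-AS3 shared that of HOXA4 and HOXC-AS1 that of HOXC9, and HOXA10-AS shared a weaker promoter hotspot of HOXA9 with a score of 6.28. HOXB-AS4 had a hotspot of its own with a score of 5.37. HOXA11-AS, HOXC-AS3, HAGLR, HAGLROS and HOXD-AS2 were among the 13 without a promoter hotspot.

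Of 8 microRNA genes in the clusters, 4 (50%) had a hotspot within 1000 bp of the start, against 28.6% of 1879 in the genome. In 3 of these 4 the strongest such hotspot was also within 1000 bp of a HOX TSS, so the starts cannot be told apart. The miR-196 genes, which lie next to group 9 HOX genes and whose products target HOX messages, differed among the clusters. MIR196B in HOXA had a score of 6.28 at a hotspot 133 bp away, the same one that HOXA9 and HOXA10-AS shared. MIR196A1 in HOXB was 2823 bp and MIR196A2 in HOXC 5660 bp from the nearest hotspot. The mature RNAs of the miR-196 genes (RefSeq, GRCh38.p14) are printed with the seed, bases 2 to 8, in capitals.
miR-196b-5p: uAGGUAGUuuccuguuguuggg
miR-196a-5p: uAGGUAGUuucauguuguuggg
Both MIR196A genes give the second sequence, which has the same seed and differs from the other at 1 base of 22. MIR10B in HOXD had a score of 4.64 at a promoter hotspot of HOXD4, and MIR615 in HOXC a score of 6.24 at one of HOXC5. MIR10A in HOXB had no hotspot nearby.

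The genes on either side of the clusters had mixed values. SKAP2, on the group 1 side of HOXA, had a score of 44.7 at its promoter, and CALCOCO1, on the group 13 side of HOXC, a score of 31.9. TTLL6 beyond HOXB13 had 18.7, SMUG1 beyond HOXC4 had 14.6 and MTX2 beyond HOXD1 had 12.4. The homeobox gene EVX1, beyond HOXA13, had a score of 5.13, and EVX2, beyond HOXD13, had no promoter hotspot. SKAP1, a gene of T cells on the group 1 side of HOXB, had none.

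Among factors that work with or act on HOX genes, most had a promoter hotspot, as did 77.2% of all protein-coding genes, with 47.4% of all in the top 10%. All 9 genes of the TALE class, the DNA-binding partners of HOX proteins, had a promoter hotspot, 6 of them in the top 10%. The highest score was 53.6 at PKNOX1 and the lowest was 4.86 at PBX2. All 16 Polycomb genes had one, 15 in the top 10%, between 6.74 at RING1 and 67.4 at SUZ12. Of these 16 genes, 15 had a CpG-rich promoter, a class in which 91.5% of all genes had a promoter hotspot. All 8 Trithorax genes had one, 7 in the top 10%, between 14.3 at WDR5 and 41.3 at KDM6A. Of 9 genes of retinoic acid signalling, which induces anterior HOX genes in embryos, 7 had one (77.8%, near that background), 4 in the top 10%, between 4.48 at RARB and 26.7 at RARA, and the degrading enzymes CYP26A1 and CYP26C1 had none.

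Other homeobox genes related to the HOX genes gave mixed values. Of 8 ParaHox and EVX genes, 5 had a promoter hotspot (62.5%, against 77.2% of all protein-coding genes), none in the top 10%, between 4.48 at CDX4 and 14.3 at PDX1. CDX1, GSX2 and EVX2 had none. Of 8 DLX and MSX genes, which pattern skin appendages and the face, 7 had a promoter hotspot (87.5%), 4 in the top 10% (against 47.4% of all protein-coding genes), with the highest score of 28.6 at DLX1 and the lowest of 4.76 at DLX5. DLX3 had none. Of the 39 HOX genes, 24 had a promoter hotspot and 5 were in the top 10%.

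**Figure D4:**
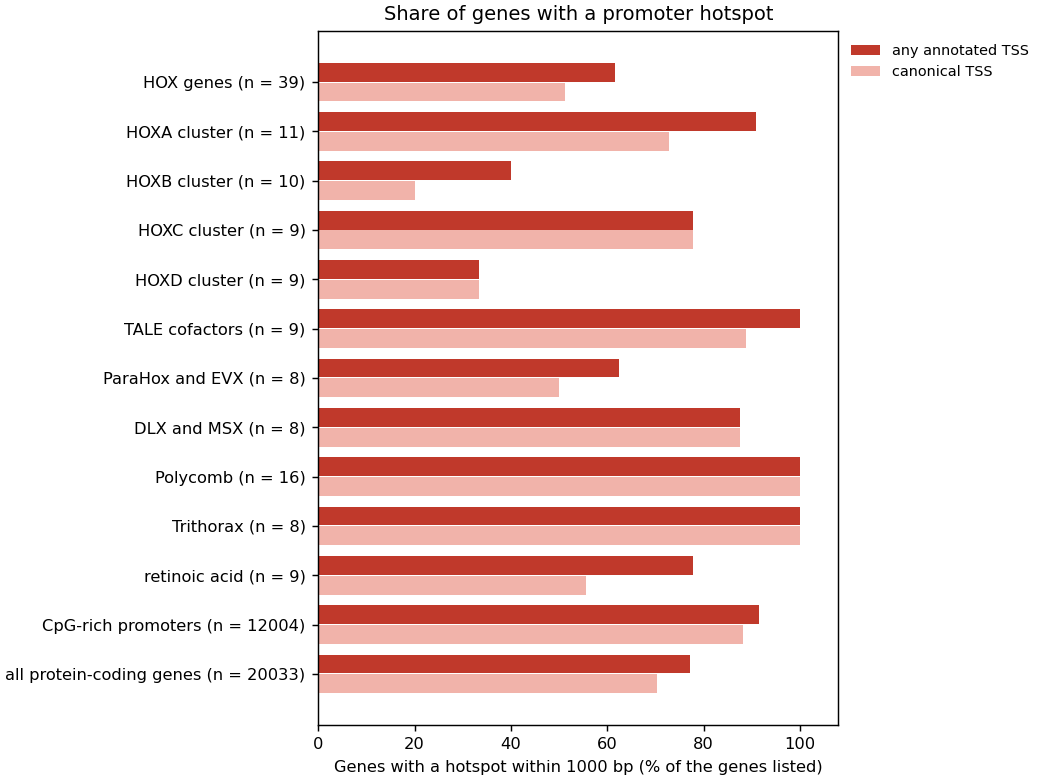
Share of genes with a hotspot within 1000 bp of any annotated TSS (dark bars) or of the canonical TSS (light bars), for the HOX genes, each cluster, 6 lists of related genes, genes with a CpG-rich promoter and all protein-coding genes. The number of genes is given with each name. The HOX bar stands at 61.5% and the bar of all protein-coding genes at 77.2%, and HOXB (4 of 10 genes) and HOXD (3 of 9 genes) have the shortest dark bars of the 4 clusters.

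Of 9 markers of basal mammary cells, 7 had a promoter hotspot (77.8%, against 77.2% of all protein-coding genes), and all 7 were in the top 10%, where 47.4% of all protein-coding genes were. The basal markers KRT14 and TP63 had none, and both epithelial markers, EPCAM and CDH1, had one. The immune genes PTPRC and CD3E had none. Of the hepatocyte genes ALB and APOB and the neuronal genes NEUROD1 and DCX, ALB had a score of 8.67, NEUROD1 a score of 4.47 and the other genes none, and ALB and NEUROD1 had no hotspot at their canonical TSS.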

How the data were processed

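ATAC-seq libraries of 5 MCF10A replicates, read from both fragment ends, were mapped by the authors with Bowtie2 on build hg38 (the aligner's version is not given for these data in the sources used here). The authors merged the replicates, removed duplicates and called hotspots with the program Hotspot, without input, at a false discovery rate of 0.01. No Tn5 shift is stated for the hotspot calls. The deposited list holds a start, an end and a score for each hotspot. The score was used as given, to order hotspots, and was not adjusted for width, copy number or depth, which is unknown. Neighbouring enrichments were merged by the authors, so nearby sites can be 1 hotspot.

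Genes and TSSs were those of GENCODE release 44 (20033 protein-coding genes, 146431 gene and TSS pairs). A promoter hotspot had any base within 1000 bp of a TSS, and a hotspot belonged to a cluster by its midpoint. Motifs were searched on both strands of 300 bp windows and of whole hotspots. The HOX genes were named by rule, with non-coding genes, neighbours and lists of related genes, and some single results are not reported here, although counts are over all members. Members and lists were chosen with earlier results of these data known, and the single pooled list allows no test between groups. The alternatives were TSS windows of 500 and 2000 bp, canonical or protein-coding TSSs, hotspots above the median score, other overlap rules, cluster ends and motif windows. The overlap and motif searches were tested on simulated data. Software was Python 3.11.15 with pandas 2.3.3, numpy 2.4.6, pysam 0.24.0 and matplotlib 3.10.9.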

Additional observations from a re-analysis of the deposited data

How the results depend on the processing

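The number of HOX genes with a promoter hotspot lay between 19 and 29 over 6 alternatives, and the share of HOX genes stayed below that of all protein-coding genes in each. The difference of -15.6 percentage points became -6.74 with a window of 2000 bp, which adds the 5 HOX genes whose nearest hotspot lay between 1000 and 2000 bp away, and was between -20.5 and -14.7 in the other alternatives. With only hotspots above the median score, which leaves fewer hotspots by construction, the clusters held 37 hotspots and 7.08 per 100 kb, and their density relative to the genome was 2.29 against 2.54 with all hotspots. The share of cluster hotspots with a CTCF match was 0 with windows of 120 bp. HOXB had 7 genes with a promoter hotspot with 2000 bp and 2 with the canonical TSS or protein-coding transcripts alone. HOXD had 1 and HOXC 5 with hotspots above the median score, and HOXA had 8 with the canonical TSS alone. The median of the highest promoter score lay between 6.32 and 6.96. Unknown depth, 5 pooled replicates and an undefined score limit all values: a missing hotspot says that no enrichment passed the call, not that a promoter was closed.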
